A study of Mus musculus with 30 samples.

Results

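The genes described here are 9 markers of dentate gyrus granule cells, Prox1, Dsp, C1ql2, Tdo2, Lct, Stxbp6, Calb1, Npnt and Plk5, chosen by name and followed across 5 conditions and 30 libraries of mouse dorsal hippocampus. All 9 symbols were found, each on 1 of the 24883 rows of the expression table, and all 9 were among the 13184 rows that averaged at least 1 FPKM (mapped fragments scaled by transcript length and by library size) and were tested. In brief, none of the 9 passed the adjusted test between conditions, whereas 8 of them, all but Calb1, varied together from mouse to mouse, and their mean was lowest in 4 libraries.

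All mice were wild-type male C57BL/6J, aged 2 to 4 months and single-housed. There were 6 libraries in each condition, and every mouse had a bilateral infusion of the jetPEI in vivo transfection reagent into the dorsal hippocampus, which the labels place 3 days before training. VEH-HC mice received the reagent without plasmid and were only handled in the home cage. VEH-T10 and VEH-T3 mice received the reagent without plasmid and then explored objects for 10 min (threshold) or 3 min (subthreshold) in object location memory (OLM) training. Y397F-T10 mice carried a plasmid for HA-tagged mouse CREST with phenylalanine in place of the tyrosine that Y397F names, called the phospho-null form in the labels, and were trained for 10 min. Y397D-T3 mice carried the form with aspartate there, called phospho-mimetic, and were trained for 3 min. Tissue was taken 1 h after training. By the methods, mice in the OLM task were also habituated to the chamber before training, whereas home-cage mice were only handled. Against VEH-HC, habituation and training therefore cannot be told apart. CREST (Ss18l1) is a subunit of the neuronal BAF chromatin remodelling complex, and both plasmids used a miniCaMK2 promoter, which is meant for excitatory neurons. Plasmid with unmutated CREST was not among the conditions, so plasmid and point mutation cannot be told apart.

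Granule cells are the principal neurons of the dentate gyrus. They receive entorhinal input and send mossy fibres to the hilus and to CA3, and they lie next to CA1 across the hippocampal fissure. Prox1 is the homeobox transcription factor that sets and maintains granule cell identity. The labels name the tissue as dorsal hippocampus of 1 hemisphere and the methods as dorsal CA1. Both sets of markers were present: the 9 granule cell genes summed to 108.2 to 247.4 FPKM per library, and 8 CA1 pyramidal markers, such as Wfs1 and Fibcd1, to between 192 and 286 FPKM. None of the 9 genes was at 0 in any library. In bulk tissue, fewer granule cells in a sample and less RNA of these genes per cell cannot be told apart.

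Promoter windows were matched by symbol in RefSeq (assembly GRCm38.p6) for 8 of the 9 genes, and Calb1 had no entry. Printed here are the 250 bases before the transcript start of 5 genes: Prox1, as the transcription factor that defines the cell type, with Dsp, the marker among the 9 closest to it over the libraries, C1ql2 and Plk5, another closely correlated pair, and Lct, the gene with the widest range. Sequences run 5′ to 3′ on the strand of the gene, and capitals mark E-boxes, the letters CANNTG, which basic helix-loop-helix factors such as Neurod1 can bind and which read as CANNTG on both strands.
Prox1, chr1:190170828-190171077, minus strand: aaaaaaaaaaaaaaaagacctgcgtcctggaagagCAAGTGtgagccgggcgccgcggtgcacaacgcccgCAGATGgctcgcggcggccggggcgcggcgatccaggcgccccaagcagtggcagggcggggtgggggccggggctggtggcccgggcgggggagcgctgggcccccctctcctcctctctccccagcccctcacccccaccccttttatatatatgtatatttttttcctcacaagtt
Dsp, chr13:38151044-38151293, plus strand: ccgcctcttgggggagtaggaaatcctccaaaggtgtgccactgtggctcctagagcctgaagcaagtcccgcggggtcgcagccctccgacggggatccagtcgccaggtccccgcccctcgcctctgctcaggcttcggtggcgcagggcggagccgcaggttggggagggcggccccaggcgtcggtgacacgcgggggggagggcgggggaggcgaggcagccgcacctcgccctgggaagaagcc
C1ql2, chr1:120340332-120340581, plus strand: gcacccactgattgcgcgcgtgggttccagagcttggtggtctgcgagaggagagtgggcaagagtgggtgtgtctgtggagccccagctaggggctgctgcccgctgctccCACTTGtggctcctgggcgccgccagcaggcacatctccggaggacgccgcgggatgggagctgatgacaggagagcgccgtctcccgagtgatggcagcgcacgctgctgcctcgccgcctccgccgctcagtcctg
Plk5, chr10:80356209-80356458, plus strand: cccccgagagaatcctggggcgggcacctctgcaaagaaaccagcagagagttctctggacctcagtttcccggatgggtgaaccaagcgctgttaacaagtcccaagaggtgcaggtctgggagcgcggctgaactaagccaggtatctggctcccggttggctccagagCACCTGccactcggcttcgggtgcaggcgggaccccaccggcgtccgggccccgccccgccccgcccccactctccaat
Lct, chr1:128328319-128328568, minus strand: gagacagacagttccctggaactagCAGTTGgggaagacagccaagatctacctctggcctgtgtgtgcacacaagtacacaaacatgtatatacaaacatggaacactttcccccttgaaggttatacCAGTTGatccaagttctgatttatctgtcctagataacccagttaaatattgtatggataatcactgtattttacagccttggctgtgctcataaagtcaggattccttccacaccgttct
The 8 genes had 10 windows, since Prox1 and Npnt had 2 each. An E-box was found in 6 of these 10 windows, each of a different gene, and in 66.2% of all 32851 windows of the same length. Dsp held none in the stretch shown. The neuronal variants CAGATG or CATCTG were found in 1 of the 10 windows, the Prox1 window shown, and in 14.4% of all windows. No window of Tdo2 held an E-box either. The Dsp, C1ql2, Prox1 and Plk5 stretches held 72.4%, 68.8%, 64.8% and 65.6% G and C, against 42.8% for Lct and a median of 52.4% over all windows.

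FPKM is scaled by transcript length, so the genes can be ranked. C1ql2, a secreted C1q-like protein of mossy fibre synapses, was the most abundant at a mean of 75.6 FPKM over the 30 libraries (range 32.9 to 118). Calb1, the calcium buffer calbindin, which superficial CA1 pyramidal neurons and some interneurons also make, averaged 33.4 FPKM (19.1 to 42.4). Stxbp6, the SNARE-binding protein amisyn, averaged 28.2 FPKM (17.5 to 37.7). The order of Calb1 and Stxbp6 was the least firm, with Calb1 above Stxbp6 in 20 of 30 libraries.

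Plk5, a polo-like kinase found in differentiated neurons, averaged 15.6 FPKM (5.84 to 24.4). Prox1 averaged 12.2 FPKM (6.36 to 16.7), and Lct, the gene for lactase, 10.3 FPKM (2.52 to 16.9). Plk5 exceeded Prox1 in 26 libraries and Prox1 exceeded Lct in 25, so the ranges of these neighbours overlapped. Npnt, for the extracellular matrix protein nephronectin, averaged 7.94 FPKM (4.65 to 10.1), and Dsp, for the desmosomal plaque protein desmoplakin, 6.35 FPKM (2.33 to 9.36). Tdo2, for tryptophan 2,3-dioxygenase, was the least abundant, at 3.69 FPKM (1.63 to 5.3), and lay below Dsp in 30 of 30 libraries. On the GRCm38 annotation (GENCODE M21) these are protein-coding genes on 6 chromosomes. Prox1 lies at chr1:190118035-190170714 on the minus strand, where antisense transcripts overlap it, and Dsp, Npnt and Stxbp6 also share their span with annotated genes on the opposite strand. The strand setting of the quantification is not given in the sources used here, so reads of these genes and of their antisense partners cannot be told apart.

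**Figure D1:**
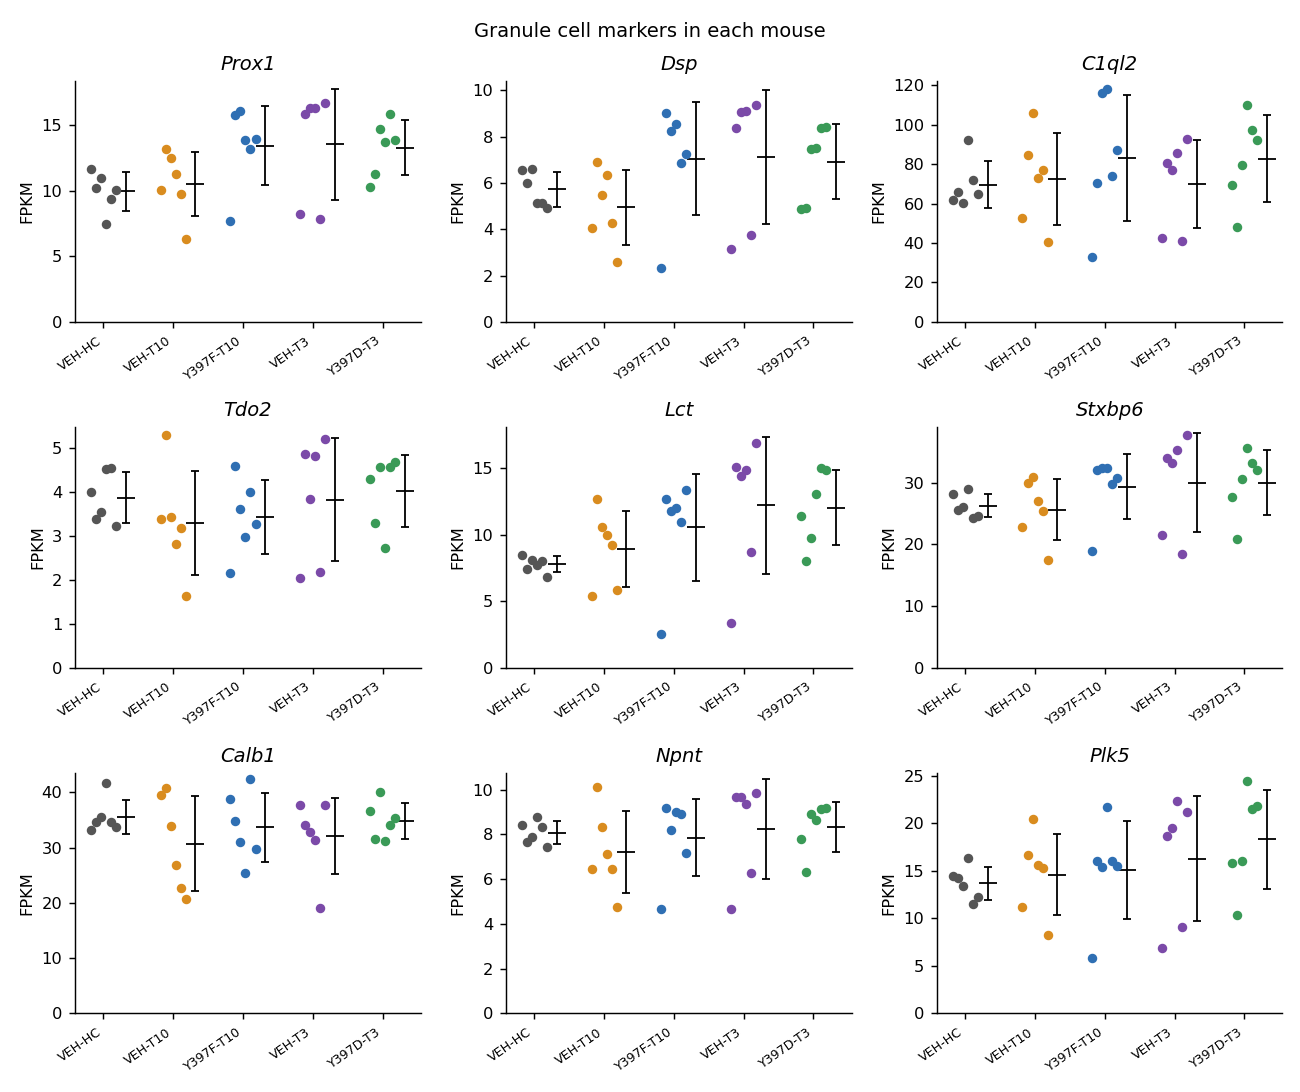
FPKM of the 9 granule cell markers (vertical axes, linear, from 0) in the 5 conditions; each point is 1 mouse, and the bar is the mean ± SD of 6 mice. The conditions overlap for every gene, and replicate 1 of Y397F-T10 lies apart from the other 5 mice for Prox1, Dsp, Lct and Stxbp6.

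The first question was whether training or CREST Y397 forms went with a different level of these genes. Among VEH-HC mice the lowest, median and highest Prox1 FPKM were 7.45, 10.1 and 11.7, and among VEH-T10 mice 6.36, 10.7 and 13.2. Y397F-T10 mice gave 7.7, 14.0 and 16.1 FPKM, VEH-T3 mice 7.89, 16.1 and 16.7, and Y397D-T3 mice 10.3, 13.8 and 15.9. In VEH-T3, 4 mice lay above every VEH-HC mouse and 2 lay within the VEH-HC range, and in Y397F-T10 it was 5 mice and 1. The log2 fold change of FPKM + 1 for Prox1 against VEH-HC was 0.38 in Y397D-T3 (standard error 0.186, limma adjusted p = 0.2), and 6 of 6 mice exceeded the home-cage median. Y397F-T10 also gave 0.38 (adjusted p = 0.299, 5 of 6 mice), VEH-T3 gave 0.36 (adjusted p = 0.262, 4 of 6) and VEH-T10 gave 0.05 (adjusted p = 0.931, 3 of 6). Prox1 thus did not pass the adjusted test in any of these, and the trained conditions share the same VEH-HC mice.

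Lct had the widest range. Its lowest, median and highest FPKM were 6.82, 7.89 and 8.5 among VEH-HC mice, 5.36, 9.6 and 12.7 among VEH-T10 mice, and 2.52, 11.9 and 13.4 among Y397F-T10 mice. VEH-T3 mice gave 3.33, 14.6 and 16.9 and Y397D-T3 mice 8.0, 12.2 and 15.0. In Y397F-T10, 5 mice exceeded the highest VEH-HC mouse and replicate 1 lay below the lowest, and in VEH-T3 the split was the same. The log2 fold change against VEH-HC was 0.54 for Y397D-T3 (standard error 0.305, adjusted p = 0.269), with 6 of 6 mice over the home-cage median. It was 0.45 for VEH-T3 (adjusted p = 0.416, 5 of 6 mice), 0.27 for Y397F-T10 (adjusted p = 0.704, 5 of 6) and 0.13 for VEH-T10 (adjusted p = 0.89, 4 of 6), and none passed.

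This result for Lct depended on 2 libraries, which also held its 2 lowest values of the 30. They were Y397F-T10 replicate 1 at 2.52 FPKM and VEH-T3 replicate 1 at 3.33 FPKM. Leaving them out therefore raises the Lct means of Y397F-T10 and VEH-T3 by construction. Without VEH-T3 replicate 1 and Y397F-T10 replicate 1, which had the lowest summed FPKM of the 30 and were left out after the values had been seen, the difference of Lct from VEH-HC passed for VEH-T3 (0.75 log2, standard error 0.174, limma adjusted p = 0.00666), for Y397F-T10 (0.59, adjusted p = 0.0441) and for Y397D-T3 (0.54, adjusted p = 0.0365). With only the 12 libraries of Y397D-T3 and VEH-HC in the model, Lct (0.54, adjusted p = 0.0152) and Prox1 (0.38, adjusted p = 0.0375) passed as well. The shares of all tested rows called against VEH-HC rose too: without the 2 libraries to 11.9% (VEH-T3), 10.8% (Y397D-T3) and 5.58% (Y397F-T10), and with only the 12 libraries to 14.0% (Y397D-T3). Some markers of neighbouring tissue were lower in Y397D-T3 than in VEH-HC, and the other trained conditions shared this. The median log2 fold change of deep cortex markers was -0.63 (VEH-T10), -0.52 (VEH-T3), -0.51 (Y397F-T10) and -0.48 (Y397D-T3). For thalamus it was -0.21, -0.05, -0.19 and -0.23 in the same order. For choroid plexus it was -1.95, -0.89, -1.63 and -2.44. The 6 deep cortex markers, of which 4 were tested, summed to 26.4 to 35.9 FPKM in VEH-HC and 16.6 to 29.3 in Y397D-T3, and Ctgf was lower (log2 fold change -0.74). The 7 thalamus markers, of which 6 were tested, summed to 26.0 to 36.9 and 17.7 to 33.8 FPKM, and Slc17a6 (-0.95) and Tcf7l2 (-0.37) were lower. The 8 choroid plexus markers summed to 1080 to 6380 FPKM in VEH-HC and 45.8 to 3210 in Y397D-T3 (median log2 fold change -2.44). By limma 0 of 8 were called, beside 7.07% of all tested rows. At an unadjusted p under 0.05 it was 8 of 8, beside 24.9% of rows. Calb2, of hilar mossy cells and immature granule neurons, was lower in Y397D-T3 (-1.5), and was the only called gene of either list. The median log2 fold change was -0.2 over 3 tested mossy cell genes. Over 5 tested genes of immature granule neurons it was -0.01. No marker of these lists was at 0 throughout a condition, and their part in the Prox1 and Lct values was not tested.

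VEH-HC mice had a lowest, median and highest Dsp FPKM of 4.93, 5.57 and 6.6, VEH-T10 mice of 2.59, 4.88 and 6.91, and Y397F-T10 mice of 2.33, 7.74 and 9.02. VEH-T3 mice gave 3.13, 8.72 and 9.36 FPKM and Y397D-T3 mice 4.88, 7.49 and 8.41. The low mice of VEH-T10, Y397F-T10 and VEH-T3 were those that were low for Prox1. Among the 7 comparisons, the largest difference of Dsp was 0.4 log2 between Y397F-T10 and VEH-T10 (standard error 0.25, adjusted p = 1.0, higher than the VEH-T10 median in 5 of 6 mice), and -0.4 log2 between VEH-T10 and VEH-T3 (adjusted p = 0.71), with overlapping ranges. C1ql2 had a median of 65.5 FPKM in the home cage, and medians of 75.1 (VEH-T10), 80.5 (Y397F-T10), 78.9 (VEH-T3) and 85.9 FPKM (Y397D-T3) after training, and its lowest and highest values within Y397F-T10 (32.9 and 118) were the extremes of all 30 libraries. Plk5 had medians of 13.8, 15.5, 15.8, 19.1 and 18.8 FPKM in the same order, with a log2 fold change of 0.35 in Y397D-T3 against VEH-HC (standard error 0.268, adjusted p = 0.427, higher than the home-cage median in 5 of 6 mice). The differences of C1ql2 and Plk5 were of the size of their standard errors or little above.

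Stxbp6, Npnt, Tdo2 and Calb1 complete the list. Stxbp6 had medians, in the same order, of 25.8, 26.2, 31.3, 33.6 and 31.3 FPKM, and its log2 fold changes against VEH-HC lay between -0.06 and 0.17. Npnt stayed between medians of 6.79 FPKM in VEH-T10 and 9.51 FPKM in VEH-T3, and Tdo2 between 3.27 FPKM in VEH-T10 and 4.43 FPKM in Y397D-T3. Calb1, with medians of 34.6, 30.4, 33.0, 33.4 and 34.7 FPKM, was below VEH-HC in each trained condition on average, by values from -0.25 in VEH-T10 (standard error 0.153, adjusted p = 0.476, lower than the home-cage median in 4 of 6 mice) to -0.03 in Y397D-T3. All of these ranges overlapped.

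Counted over the list, limma with Benjamini-Hochberg adjustment called 0 of the 9 genes in each comparison. Against VEH-HC, the shares of all tested rows called were 7.07% (Y397D-T3), 5.17% (VEH-T3), 1.13% (Y397F-T10) and 0.819% (VEH-T10). Between conditions of equal training, 0 of 9 stood beside 0.0% of rows for Y397F-T10 against VEH-T10 and 0.00758% for Y397D-T3 against VEH-T3. For VEH-T10 against VEH-T3 it was 0 of 9 beside 0.0455%, and for any difference among the 5 conditions (limma F test) 0 of 9 beside 2.64%. At an unadjusted p under 0.05, 1 gene, Prox1, passed in Y397D-T3 against VEH-HC, where 24.9% of rows did, and 0 of 9 passed in the other comparisons, where 3.78% to 21.6% of rows did. Beside these shares the counts of 0 and 1 are no result about the markers as a list.

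Directions can be read only as a description, because the genes move together and so are not separate observations. All 9 fold changes were above 0 for Y397F-T10 against VEH-T10 (0.01 to 0.4 log2, median 0.15, against -0.01 over all tested rows). All 9 were above 0 for Y397D-T3 against VEH-T3 too (0.02 to 0.26, median 0.09, against 0.0). Prox1, Dsp and Npnt were nevertheless below the VEH-T3 median in all 6 Y397D-T3 mice, and the VEH-T3 mean includes 2 low mice. For Y397D-T3 against VEH-HC 8 of 9 were above 0 (median 0.22, against -0.03 over all tested rows), and for VEH-T10 against VEH-T3 8 of 9 were below 0 (median -0.16, against 0.0). Differences between condition means made up 5.03% (C1ql2) to 23.6% (Prox1) of the spread of a gene over the 30 libraries. The median was 10.0%, against a median of 17.6% for all tested rows. These shares are not corrected for the part that 5 groups take by chance.

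**Figure D2:**
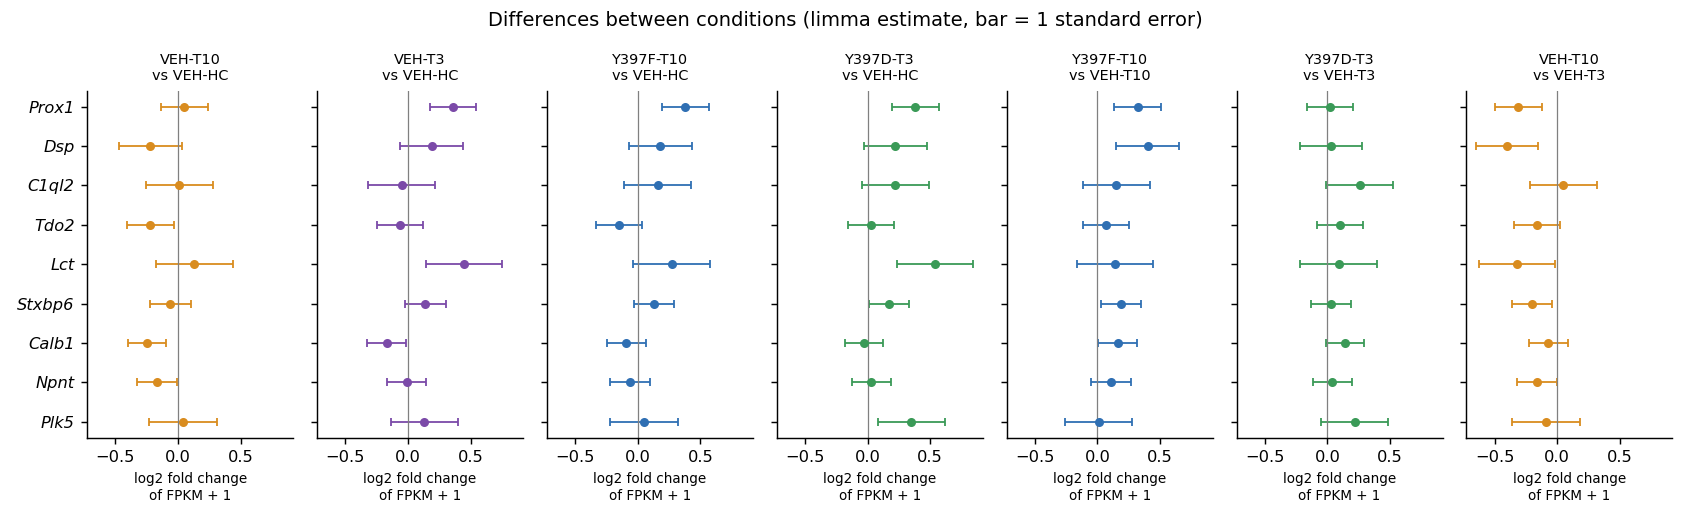
Log2 fold change of FPKM + 1 for each of the 9 genes (rows) in 7 comparisons (panels); the point is the limma estimate and the bar 1 standard error, from 6 mice in each condition. Estimates run from -0.4 to 0.54, and no gene passed an adjusted p of 0.05.

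The spread among mice of a condition was wide. The within-condition SD of log2(FPKM + 1) was 0.55 for Lct, 0.49 for Plk5, 0.48 for C1ql2, 0.45 for Dsp, 0.34 for Prox1, 0.33 for Tdo2, 0.29 for Stxbp6 and 0.28 for both Calb1 and Npnt. The median over all tested rows was 0.14, and all 9 genes exceeded it. VEH-HC mice were the most alike: the SD was smallest in VEH-HC for 9 of 9 genes, and in 36.7% of all tested rows. For Lct it was 0.1 in VEH-HC against 0.78 in both Y397F-T10 and VEH-T3, and for Npnt 0.08 in VEH-HC against 0.4 in VEH-T3. This pattern was noticed in the values and was not tested.

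The next question was whether the 9 genes varied together. Over the 30 libraries, Pearson correlations of log2(FPKM + 1) among the 8 genes other than Calb1 ran from 0.59 to 0.92 with a median of 0.84, and Spearman's rho from 0.43 to 0.93. All 28 pairs had an adjusted p under 0.05 for both (100000 permutations, 2-sided, Benjamini-Hochberg over 36 pairs; the largest adjusted p was 0.00104 for r and 0.0256 for rho). The closest pairs were Prox1 with Dsp, Dsp with Stxbp6 and Stxbp6 with Plk5, each at r = 0.92, followed by C1ql2 with Plk5 at 0.91. Without the 2 libraries farthest from the median of the first gene, r ran from 0.42 to 0.94. Within conditions, with each gene centred on its condition means, r ran from 0.62 to 0.95 and all 28 pairs passed again.

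Over all 36 planned pairs, 29 passed for both r and rho. Calb1 stood apart from the other 8, a split that was not planned. Its correlations ran from -0.05 with Lct to 0.57 with Tdo2, and 1 of 8 pairs, that with Tdo2, passed (permutation adjusted p = 0.00158, rho = 0.49). Calb1 was above its mean in Y397F-T10 replicate 1 and VEH-T3 replicate 1, where the other 8 were far below theirs. It was among the low genes in VEH-T10 replicate 6 and VEH-T3 replicate 5. The row with the closest pattern to Calb1 was Elmod1 (r = 0.86, chosen after the values were seen), and none of the other 8 markers was among the 100 rows closest to Calb1, whereas each of the 8 had 5 to 7 of its 7 partners among its own closest 100.

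**Figure D3:**
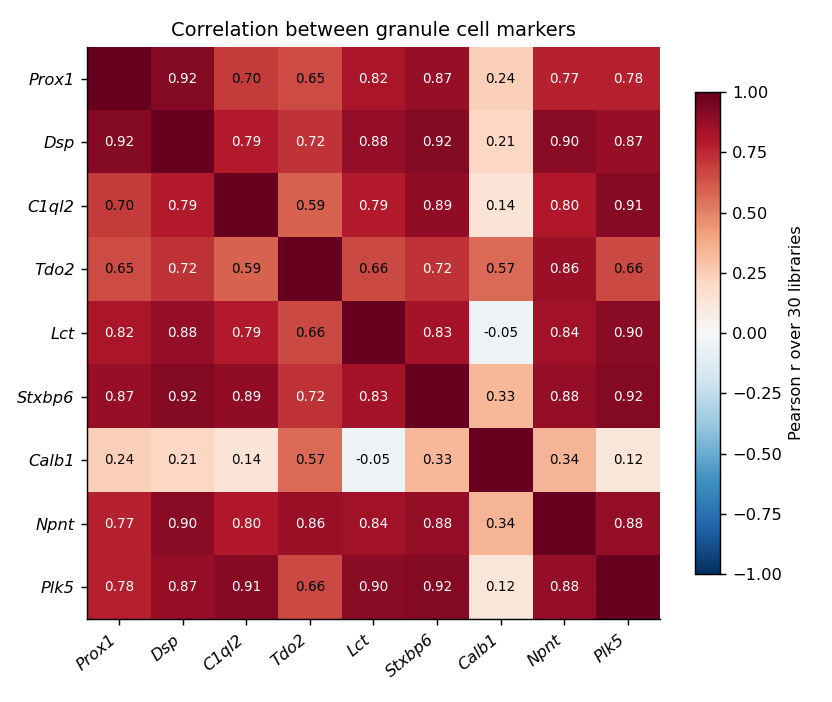
Pearson r of log2(FPKM + 1) over 30 libraries for each pair of the 9 genes, coloured from -1 (blue) to 1 (red). The 8 genes other than Calb1 form a block between 0.59 and 0.92, and the row of Calb1 runs from -0.05 to 0.57.

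The shared variation included 4 low libraries. They are taken here as the lowest by the mean of the 8 genes (log2 difference from the mean of each gene over 30 libraries). They were Y397F-T10 replicate 1 at -0.91, VEH-T10 replicate 6 at -0.76, VEH-T3 replicate 1 at -0.73 and VEH-T3 replicate 5 at -0.51. The next lowest were VEH-T10 replicate 1 at -0.35 and Y397D-T3 replicate 2 at -0.3, and the highest was VEH-T3 replicate 6 at 0.47. All 8 genes were below their means in each of the 4, and all 8 lay on the same side of their means in 18 of the 30 libraries. The VEH-HC libraries ran only from -0.21 to -0.01, a mean in which single genes offset each other in replicate 4. Relative depth, read from the spacing of values in rows of few fragments, was 1.1, 1.08, 0.95 and 1.0 in the 4 libraries, within the 0.813 to 1.25 found over all 30.

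The 4 libraries were not low in the same way. In Y397F-T10 replicate 1, Lct was at 24.5% of its median over the 30 libraries (2.52 against 10.3 FPKM), Dsp at 35.4%, Plk5 at 37.2%, C1ql2 at 43.6%, Npnt at 56.0%, Tdo2 at 60.5%, Prox1 at 63.7% and Stxbp6 at 64.5%. VEH-T3 replicate 1 had a like order, from Lct at 32.4% and Plk5 at 44.1% to Stxbp6 at 73.2%, while Calb1 was at 111%. In VEH-T10 replicate 6 the genes were more even, from Dsp at 39.4% to Stxbp6 at 59.5%, with Calb1 at 60.7%. In VEH-T3 replicate 5 Lct was the least reduced of the 8, at 84.3% of its median (8.68 FPKM), beside C1ql2 at 54.4% and Calb1 at 56.2%. Lct and Calb1 therefore took different positions in VEH-T3 replicates 1 and 5, although Prox1 was nearly equal in both (8.24 and 7.89 FPKM).

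Without these 4 libraries, chosen after the values had been seen, r among the 8 genes ran from 0.07 to 0.9 with a median of 0.68 over 26 libraries, and 22 of 28 pairs passed the permutation test. The 21 pairs among Prox1, Dsp, C1ql2, Lct, Stxbp6, Npnt and Plk5 all passed. The 6 pairs that no longer passed were all of Tdo2, which kept its relation to Npnt (r = 0.68, permutation adjusted p = 0.000309). The relation of Tdo2 to C1ql2 went from 0.59 to 0.07. The 4 libraries were picked by the mean of the same 8 genes, so leaving them out tends to lower r by construction. The drops therefore do not show what a relation rested on. By condition, each with 6 mice, the median r of the 28 pairs was 0.96 (VEH-T3), 0.91 (Y397F-T10), 0.87 (VEH-T10) and 0.81 (Y397D-T3). In each of these 28 of 28 were above 0. Among VEH-HC mice it was 0.36, with 19 of 28 above 0. With 6 mice, r depends on the range and on single mice. The SD of the mean of the 8 genes was 0.53, 0.46, 0.37 and 0.26 in the same order, and 0.08 in VEH-HC. VEH-T3, Y397F-T10 and VEH-T10 hold the 4 lowest libraries. Differences in r between conditions were not tested.

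VEH-HC held the exception. Its replicate 4 had the lowest Prox1 of the condition (7.45 FPKM, the others 9.35 to 11.7) and the highest C1ql2 (92.4 FPKM, the others 60.3 to 72.2). Plk5 (16.4 FPKM), Stxbp6 (29), Npnt (8.76) and Calb1 (41.7) were also highest in this mouse. In VEH-T10, Y397F-T10 and VEH-T3 a single mouse was lowest for both Prox1 and C1ql2. In Y397D-T3 the lowest mouse was replicate 1 for Prox1 and replicate 2 for C1ql2.

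**Figure D4:**
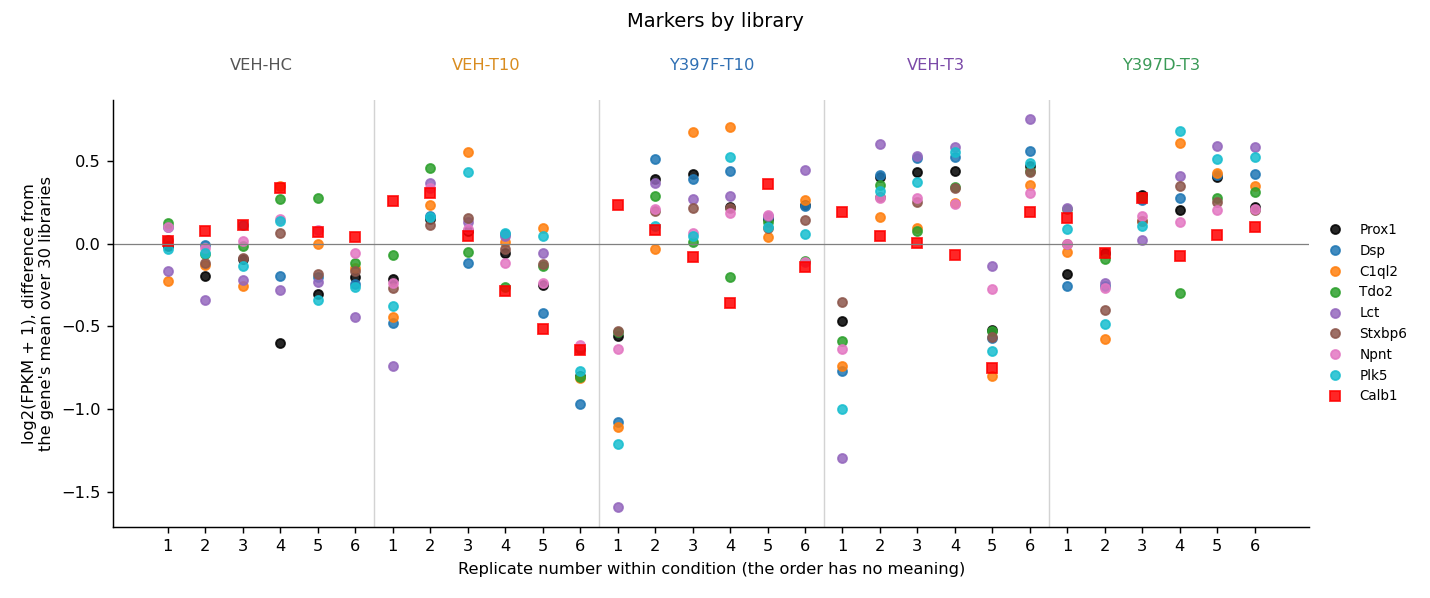
Difference of log2(FPKM + 1) from the mean of each gene over 30 libraries (vertical axis) for the 9 genes in each library, grouped by condition, and red squares are Calb1. All 8 other genes are below 0 in VEH-T10 replicate 6, Y397F-T10 replicate 1 and VEH-T3 replicates 1 and 5, where their mean is lowest, with Lct the lowest point in Y397F-T10 replicate 1. In VEH-HC their mean lies between -0.21 and -0.01, while Prox1 is low and C1ql2 high in replicate 4.

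Other granule cell genes went with the 8 markers. A list of 14 further genes reported for granule cells was measured in full. Among them were the synaptic organiser C1ql3, the GABA receptor delta subunit Gabrd, the channel Trpc6 and the transcription factor Rfx3. By limma, 0 of 14 were called in any of the 7 comparisons, beside 0.0% to 7.07% of all tested rows. At an unadjusted p under 0.05 it was 0 to 2, beside 3.78% to 24.9% of rows. Beside these shares the counts are no result about the list. The library mean of this list had r = 0.97 with the mean of the 8 markers over 30 libraries (rho = 0.96), and 0.94 without the 4 lowest. These are descriptions, since both means come from the same libraries and the list was chosen with earlier results of these data known. Fam163b (r = 0.95 with the mean of the 8, 29.2 to 100 FPKM), Sema5a (0.91, 8.42 to 18.3 FPKM) and Sipa1l2 (0.9, 9.73 to 17.7 FPKM) were closest. Ahcyl2 (0.39), Ntf3 (0.51) and Marcks (0.52) were least close.

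Markers of other cells had lower coefficients, and some were negative. The library mean of the 8 CA1 pyramidal genes ran from -0.29 to 0.21 (SD 0.11, against 0.36 for the 8 granule cell markers) and had r = 0.11 with the granule cell mean. The coefficient was 0.33 for 9 tested CA2 and CA3 genes, -0.45 for 7 GABAergic interneuron genes and -0.53 for the 3 tested hilar mossy cell genes. Without the 4 lowest libraries these 3 were 0.35, -0.54 and -0.67. Over all 30 libraries the coefficient was -0.05 for the 5 tested genes of immature granule neurons such as Dcx. For thalamus it was 0.28, for deep cortex -0.27 and for choroid plexus 0.17. Calb1 by itself had r = 0.5 with the interneuron list, 0.45 with deep cortex, 0.37 with the CA1 list and 0.34 with the wider granule cell list. The r of Calb1 was 0.21 with immature granule neurons and -0.39 with the CA2 and CA3 list. With thalamus, mossy cells and choroid plexus it was -0.28, -0.27 and -0.15. The median FPKM of a library had r = 0.39 with the granule cell mean (0.14 without the 4 lowest libraries), and relative depth -0.2.

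Among these lists 6 genes were called against VEH-HC, with limma adjusted p from 0.0138 to 0.0479. Apart from the wider granule cell list, each list held 3 to 9 tested genes. Of all tested rows, 0.819% (VEH-T10) to 7.07% (Y397D-T3) were called against VEH-HC. Beside these shares the calls are no result about the lists. Calb2 (calretinin, in mossy cells and immature granule neurons) was lower in VEH-T3 (log2 fold change -1.37) and in Y397D-T3 (-1.5). Of the 8 CA1 genes, Spink8 was higher in VEH-T3 (0.49) and Pou3f1 in Y397D-T3 (0.33). Slc17a6 was lower in VEH-T10 (-1.08) and Y397F-T10 (-1.12), and Ctgf in VEH-T10 (-0.92). Summed choroid plexus markers spanned 1080 to 6380 FPKM in VEH-HC and 45.1 to 14400 FPKM over the trained conditions, and their part in the values of the granule cell genes was not tested.

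**Figure D5:**
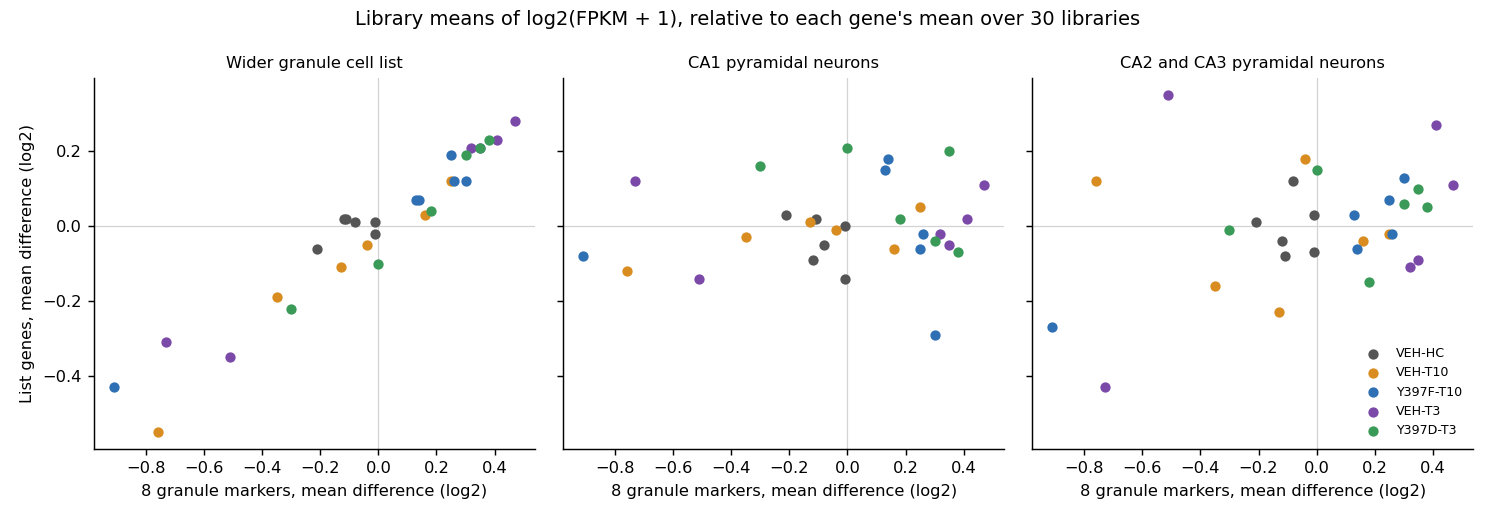
Library mean of 3 gene lists (vertical axis) against the library mean of the 8 granule cell markers without Calb1 (horizontal axis), both as log2 differences from the mean of each gene over 30 libraries; each point is a library. The 14 wider granule cell genes follow the markers (r = 0.97), and the CA1 (r = 0.11) and CA2 and CA3 lists (r = 0.33) do not line up with them.

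The rows most like the markers were found by the mean Pearson r with all 9 genes over the 30 libraries, among 13175 other rows with a median of 0.06. The highest were Btbd3 (0.8), Fam163b (0.8), Fam84a (0.79), Jph1 (0.78), Dclk3 (0.77), Sipa1l2 (0.75), and Btbd9, Cxcl12, Pitpnm2 and Bcl11b (each 0.74). Fam163b, Sipa1l2 and Bcl11b belong to the wider list, of which 10 of 14 genes were among the 100 highest rows. Since that list was chosen with earlier results of these data known, the count is a description. Btbd3 ran from 43.6 to 80.9 FPKM and Cxcl12, a chemokine, from 13.4 to 33.1 FPKM. None of the 10 was called by limma in any comparison, beside 0.0% to 7.07% of all tested rows. At an unadjusted p under 0.05 it was 0 to 2, beside 3.78% to 24.9% of rows. The lowest were Tmem215 (-0.7), the sulfatase Sulf2 (-0.7, 24.0 to 43.7 FPKM) and the synaptic vesicle protein Syngr1 (-0.68, 108 to 152 FPKM), which were higher in the libraries where the markers were lower. With values centred on condition means, 6 of the 10 highest rows were shared.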

How the data were processed

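The table holds FPKM values that the authors deposited, from paired reads aligned to mm10 with TopHat2 2.1.1 and quantified with Cufflinks 2.2.1, with 30 value columns, of which 0 were left out. Libraries were grouped by the labels, and the methods give 1 mouse per library. NovaSeq and HiSeq were both used and are not assigned to libraries, so no platform term could be fitted. FPKM carries no read totals. Relative depth came from 2642 low rows and 435 library pairs (largest residual 0.00667 log2), and absolute depth is unknown, so precision rests on the spread among mice.

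Log2(FPKM + 1) of the 13184 rows averaging at least 1 FPKM entered limma 3.58.1 (R 4.3.3) with condition as the only term, all 30 libraries and a trend on expression. The pseudocount of 1 draws fold changes of low genes toward 0. P-values were adjusted by Benjamini-Hochberg over all tested rows, with a threshold of 0.05. The procedure was tested on simulated data. Correlations used a permutation test with 100000 permutations, whose smallest p is 1e-05. Other software was pandas 2.3.3, matplotlib 3.10.9, scipy 1.17.1 and numpy 2.4.6 under Python 3.11.15. Coordinates come from GENCODE M21.

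Named are all 9 markers, the 10 rows most like them and the 3 least, and genes of the marker lists that passed the test. Of the lists, wider-list genes are named with values; Elmod1 was chosen after its values were seen. The markers and lists were chosen with earlier results of these data known. Alternatives were no filter on mean FPKM, a pseudocount of 0.1, median centring, only the 12 libraries compared, a replicate block, summed rows of a symbol, and leaving out each library. Added after seeing the data were fits without the 2 libraries of lowest summed FPKM and correlations without the 4 libraries lowest in the markers.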

Additional observations from a re-analysis of the deposited data

Results flagged for a closer look

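In 7 of 45 groups of 6 mice (9 genes in 5 conditions), 1 mouse lay farther from its nearest neighbour than Dixon's 95% value allows (the gap divided by the range of the group); chance gives about 5% of groups. Replicate 1 of Y397F-T10 was the lowest mouse for Prox1 (7.7 FPKM, the others 13.2 to 16.1), Dsp (2.33 FPKM, the others 6.88 to 9.02), Lct (2.52 FPKM, the others 11 to 13.4) and Stxbp6 (18.9 FPKM, the others 29.7 to 32.4). Replicate 4 of VEH-HC was the highest for C1ql2 (92.4 FPKM, the others 60.3 to 72.2) and Calb1 (41.7 FPKM, the others 33.2 to 35.5). Replicate 5 of VEH-T3 was the lowest for Calb1 (19.1 FPKM, the others 31.3 to 37.7). Since the genes vary together, these are not separate events.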

How the results depend on the processing

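Of 2331 alternative values of the 63 fold changes, 2326 kept their side of the threshold and 5, of Lct and Prox1, passed it, and 0 of the values that passed changed sign. With only the 12 libraries compared, limma called 2 markers in Y397D-T3 against VEH-HC, Prox1 and Lct, beside 14.0% of all rows. Without the 2 libraries of lowest summed FPKM it called 1, Lct, in each of VEH-T3, Y397F-T10 and Y397D-T3 against VEH-HC, beside 11.9%, 5.58% and 10.8% of rows, and 1 in the F test, beside 9.34%. The 2 libraries left out also held the 2 lowest Lct values of the 30. Neither Y397D-T3 nor VEH-HC held a library left out, and the Lct estimate between them stayed at 0.54. Its standard error went from 0.305 to 0.166 without the 2 libraries, and to 0.126 with only the 12 libraries. The cause of these changes was not tested. Each of the 30 fits without 1 library called 0 markers in every comparison. The number of correlated pairs was 29 to 31 with each library left out and with values centred on condition means, median centring or a pseudocount of 0.1, and 23 without the 4 lowest libraries. Centred on condition means, 6 of the 10 most similar rows remained.

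The number of all rows called moved more. Against VEH-HC it went from 108 to between 17 (without VEH-T10 replicate 6) and 398 (without the 2 libraries) in VEH-T10, and from 681 to between 0 (only 12 libraries) and 1571 (without the 2 libraries) in VEH-T3. It went from 149 to between 7 (without VEH-HC replicate 2) and 736 (without the 2 libraries) in Y397F-T10, and from 932 to between 485 (without Y397D-T3 replicate 5) and 1845 (only 12 libraries) in Y397D-T3. For the F test it went from 348 to between 141 and 1232, for VEH-T10 against VEH-T3 from 6 to between 0 and 21, and for Y397D-T3 against VEH-T3 from 1 to between 0 and 2. The replicate block called 0 markers in every comparison. The numbers belong to different mice. The deviations of 60 same-numbered pairs correlated between -0.496 and 0.84 (median 0.0416). For 300 pairs that differed in number and condition it was -0.625 to 0.743 (median 0.00649). Whether same-numbered libraries share a batch was not tested. Absolute depth is unknown, so what depth limits could not be set.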
